A study of Mus musculus with 8 samples.

Results

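The enzymes that write and remove DNA methylation were followed as transcripts in mouse embryonic stem cells in which the transcription factor JUN was induced and bromodomain inhibitors were added. The family comprised the 7 genes Dnmt1, Dnmt3a, Dnmt3b, Dnmt3l, Tet1, Tet2 and Tet3, each found by its gene name as 1 of 50600 gene rows in the deposited RNA-seq table. Testing was limited to the 10222 rows that averaged 5 or more across libraries, and all 7 members were among them.

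The series held 8 RNA-seq libraries, 2 for each of 4 treatments. All came from OG2 transgenic embryonic stem cells (mixed 129SVJ, C57B6 and CBA background) of the genotype c-Jun TetOn at passage 12. The cells were grown without feeder cells in medium with serum (FBS), LIF and the inhibitors PD0325901 and Chir99021 (2i). All received 2 µg/ml doxycycline, which switches on the JUN transgene. The groups were treated for 6 h with DMSO (the solvent), with PFI-3, an inhibitor of the bromodomain of the BAF ATPase BRG1, with BI-9564, an inhibitor of the bromodomains of BRD7 and BRD9, or with both compounds (P+B), and the legend of the supplement gives a longer exposure to doxycycline than to the compounds. The cells were 1 line, no source says that the replicates came from separate cultures, so p-values measure the spread between these libraries, and libraries without doxycycline were not analysed here, so the effect of JUN itself was not measured. The labels give no doses, so in any comparison with P+B the amount of a compound and its combination cannot be told apart.

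DNA methylation in mammals is laid down on cytosines of CpG dinucleotides. DNMT3A and DNMT3B add new methyl groups, DNMT3L lacks catalytic activity and stimulates them, and DNMT1 copies the pattern to the new strand after replication. The TET enzymes oxidise 5-methylcytosine, which opens a route to its removal. Mouse embryonic stem cells in 2i medium are known for low DNA methylation and for repression of Dnmt3b and Dnmt3l by PRDM14. The 2i medium used here also held serum.

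The values were whole-number TPM, a unit of transcript abundance that is scaled for gene length and for the total of each library, so that levels of different genes can be compared. The library sums lay between 991574 and 991897 and carry no information on sequencing depth, so no counting interval could be given. In bulk RNA, fewer cells of a type and less RNA per cell cannot be told apart. The 10 embryonic stem cell markers summed to between 3600 and 5540 TPM per library, against 0 to 5 TPM for 10 fibroblast markers, of which 6 stood at 0 in every library, Col1a2 and Dcn among them. Differences are given on the log2(TPM + 1) scale, which understates the change of low genes, with standard errors (SE) and adjusted p from limma over all 10222 genes. A gene was called when its adjusted p was under 0.05 and its fold change was at least 1.5.

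In each library the transcripts of Dnmt3l, Dnmt1 and Dnmt3b were abundant, and those of Dnmt3a and the 3 TET genes were low. Over the 8 libraries Dnmt3l averaged 165 ± 28.5 TPM (SD, n = 8 libraries of all groups), Dnmt1 162 ± 8.67, Dnmt3b 100.1 ± 7.75, Tet1 28.8 ± 6.92, Dnmt3a 22.1 ± 3.83, Tet3 15.8 ± 5.52 and Tet2 15.4 ± 6.39 TPM. The ranges of Dnmt3l and Dnmt1 overlapped, the lowest Dnmt1 value (149) exceeded the highest Dnmt3b value (115), and the lowest Dnmt3b value (91) exceeded every value of the 4 lower genes. Tet1, Dnmt3a, Tet3 and Tet2 overlapped with their neighbours in this order. The largest relative spread among libraries was that of Tet2, with a coefficient of variation of 41.6%, and the smallest that of Dnmt1, with 5.35%.

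**Figure D1:**
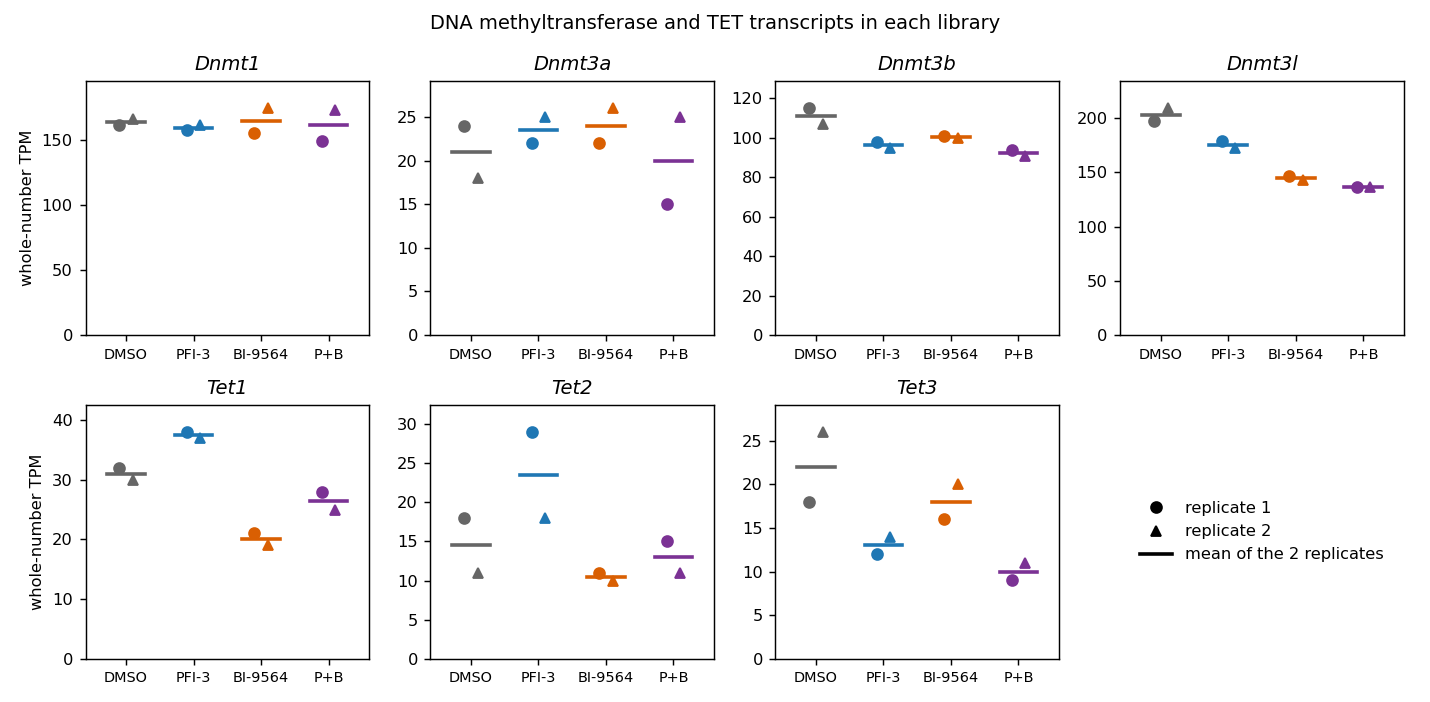
Whole-number TPM (vertical axis, starting at 0) of the 7 members by treatment (horizontal axis); circles are replicate 1, triangles replicate 2, and bars the mean of both. Dnmt3l steps down from 197 and 209 in DMSO to 136 and 136 in P+B, Tet1 is lowest in BI-9564 (21 and 19), and Tet3 is lowest in P+B (9 and 11).

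The first question was what the bromodomain inhibitors did to the family relative to DMSO. In P+B all 7 members had a lower estimate than in DMSO, with a median log2 difference of -0.22 against 0.06 over all tested genes. Dnmt1 turned positive with quantile normalization, and with 1 library left out Dnmt1 reached 0.08, Dnmt3a 0.25 and Tet2 0.21. In the second replicate Dnmt1 and Dnmt3a were higher in P+B than in DMSO, and Tet2 stood at 11 TPM in both. Of the 7 members 2, Dnmt3l and Tet3, passed an adjusted p of 0.05. This compares with 500 of 10222 genes (4.89%) by adjusted p alone. By the full rule 1 member, Tet3, was called lower, against 409 genes (4%), of which 131 were higher and 278 lower. The higher part of these calls was 81 of 386 with quantile normalization and 86 of 487 with median centring, and the count of called genes was 718 with the replicate number as a block and between 68 and 268 when any 1 of the 8 libraries was left out. The P+B libraries lay wholly below the DMSO libraries for 4 members (Dnmt3b, Dnmt3l, Tet1 and Tet3) and wholly above them for 0. Of all tested genes 18.9% lay wholly below and 28.6% wholly above, and 47.5% did not overlap in either direction. With 2 libraries a side an exact permutation test of a single gene cannot give less than 0.333.

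PFI-3 alone gave 0 called members and 0 called genes (0%) in limma, with 694 genes and 2 members (Dnmt3l and Tet3, both lower) at an unadjusted p under 0.05. BI-9564 alone gave 0 called members against 11 genes (0.108%; 0 or 1 with any 1 library left out), with 1523 genes and 2 members (Dnmt3l and Tet1, both lower) at an unadjusted p under 0.05. When the replicate number was added as a block, 1 member, Tet1, was called lower under BI-9564, against 156 genes (1.53%). The comparisons with DMSO share the same 2 DMSO libraries, so they are not independent of each other.

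**Figure D2:**
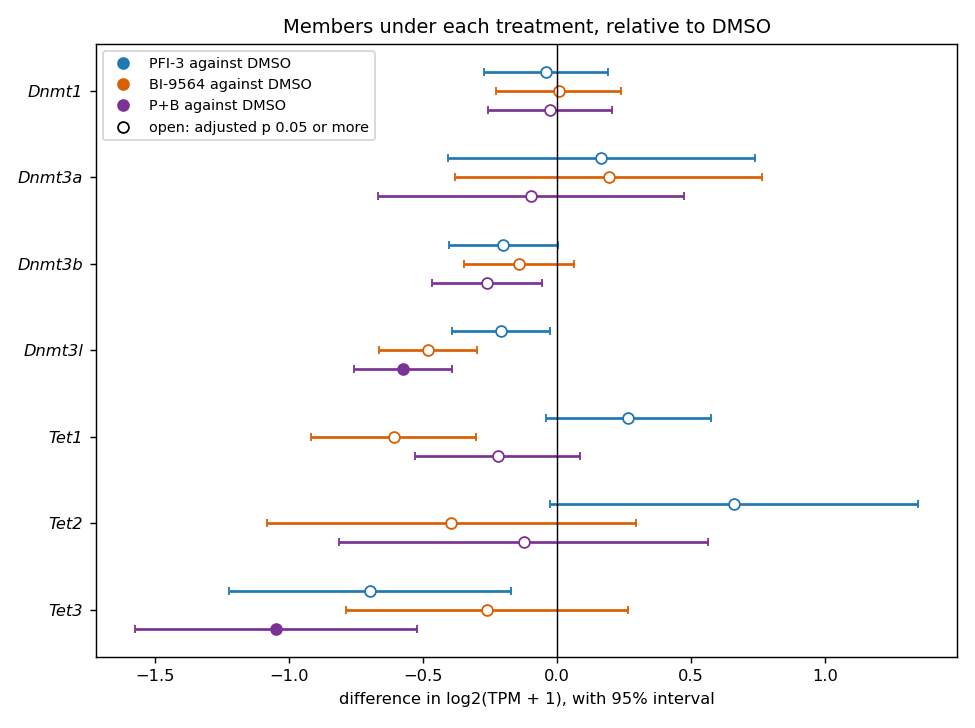
Difference of each member from DMSO in log2(TPM + 1) (horizontal axis) under PFI-3, BI-9564 and P+B, with 95% intervals from limma over 8 libraries; filled points passed an adjusted p of 0.05 and open points did not. The filled points are Dnmt3l (-0.57) and Tet3 (-1.05) in P+B, and the intervals of Dnmt1 and Dnmt3a include 0 under every treatment.

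Because each compound was present in 2 of the 4 treatments, the libraries with a compound were also compared with those without it, 4 against 4. In the libraries with BI-9564, Dnmt3l and Tet1 were lower: 2 members passed the adjusted p, against 689 genes (6.74%). By the full rule 0 members were called, against 326 genes (3.19%), since both differences were under 1.5-fold, and 121 to 168 genes were called with any 1 library left out. The higher part of those 326 calls was 123, and it was 81 of 299 with quantile normalization and 92 of 352 with median centring. Both members had ranges that did not overlap, as had 13.8% of all tested genes (6.04% lower). An exact permutation test on 4 against 4 cannot give less than 0.0286 for a single gene. With the replicate block 1 member, Tet2, was called lower, against 506 genes (4.95%). In the libraries with PFI-3, 0 members were called, against 33 genes (0.323%; 0 to 10 with any 1 library left out). Dnmt3b and Tet3 did not overlap there, 2 members, both lower, against 3.2% of all tested genes (1.26% lower). With the replicate block 1 member, Tet3, was called lower, against 107 genes (1.05%).

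The maintenance methyltransferase Dnmt1 lies on mouse chromosome 9 (GRCm38, chr9:20907209-20959888, minus strand). It stood at 161 and 166 TPM in DMSO, 157 and 161 in PFI-3, 155 and 174 in BI-9564, and 149 and 173 in P+B. The groups overlapped throughout. Its log2 difference in P+B from DMSO was -0.03 (SE 0.10, 95% interval -0.26 to 0.21, adjusted p = 0.909), and its sign turned with quantile normalization, where it was 0.07. The intervals of its other differences from DMSO ran from -0.27 to 0.19 for PFI-3 and from -0.23 to 0.24 for BI-9564, so that a change of 1.5-fold lay outside all 3 intervals. In the second replicate Dnmt1 was higher than in the first under each of the 4 treatments, by 0.11 on the log2 scale (SE 0.05, adjusted p = 0.273).

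The partners of DNMT1 at the replication fork also gave no called gene in P+B. UHRF1, which brings DNMT1 to hemimethylated DNA, was encoded by a transcript at 284 and 316 TPM in DMSO and 250 and 284 in P+B (log2 difference -0.17, SE 0.11, adjusted p = 0.404), and its difference ran from -0.26 to -0.077 with any 1 library left out. Pcna, the sliding clamp of replication, differed by -0.12 (SE 0.07, adjusted p = 0.388). Of 11 maintenance partners tested, 1 passed the adjusted p without reaching 1.5-fold: Usp7, a deubiquitinase that binds DNMT1 and UHRF1, fell from 240 and 257 TPM in DMSO to 187 and 199 in P+B (log2 difference -0.36, SE 0.08, adjusted p = 0.0451). Its adjusted p was 0.0973 with quantile normalization and 0.0725 to 0.182 with any 1 library left out. Dppa3, whose protein counters UHRF1, stood at 22 and 5 TPM in DMSO and at 22 and 7 in P+B, so that its replicates differed far more than its treatments. Trdmt1, a relative of the DNMT family that methylates tRNA, stood between 7 and 15 TPM in all libraries and differed by 0.04 in P+B (SE 0.36, adjusted p = 0.962), a sign that turned with quantile normalization (-0.06). Dnmt3c, a further relative located beside Dnmt3b, has no row of that name in the table used here, and its reads may be counted under Dnmt3b.

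Among the de novo enzymes, Dnmt3a (chr12:3806007-3914443, plus strand) stood at 24 and 18 TPM in DMSO, 22 and 25 in PFI-3, 22 and 26 in BI-9564, and 15 and 25 in P+B. The treatments overlapped and the lowest value was that of P+B replicate 1. Its log2 difference in P+B from DMSO was -0.10 (SE 0.25, adjusted p = 0.856), and it was 0.25 without P+B replicate 1. The 95% interval, from -0.67 to 0.48, is wide enough to hold a fall of 1.5-fold, so a change of that size could not be told from none.

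Dnmt3b (chr2:153649450-153687730, plus strand), the more abundant de novo enzyme in these cells, stood at 115 and 107 TPM in DMSO, 98 and 95 in PFI-3, 101 and 100 in BI-9564, and 94 and 91 in P+B. Every treated library lay below both DMSO libraries. None of the differences passed the adjusted p: the log2 difference was -0.20 in PFI-3 (SE 0.09, adjusted p = 0.746), -0.14 in BI-9564 (SE 0.09, adjusted p = 0.497) and -0.26 in P+B (SE 0.09, adjusted p = 0.136). The intervals reached from -0.46 to -0.06 in P+B, and a fall of 1.5-fold lay outside all 3. Across the libraries with PFI-3 against those without, the log2 difference was -0.16 (SE 0.06, adjusted p = 0.415).

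Dnmt3l (chr10:78041947-78063622, plus strand), the catalytically inactive cofactor, had the lowest adjusted p of the family in P+B against DMSO. It stood at 197 and 209 TPM in DMSO, 179 and 172 in PFI-3, 147 and 143 in BI-9564, and 136 and 136 in P+B. The 4 treatments formed 4 steps with no overlap between any 2 of them. Dnmt3b and Tet1 also did not overlap between any 2 treatments. In single pairs of treatments 29.3% to 47.5% of all tested genes did not overlap, and the share over all pairs was not counted. The fall of Dnmt3l from DMSO to P+B was -0.57 on the log2 scale (SE 0.08, 95% interval -0.76 to -0.39, adjusted p = 0.00744), a ratio of 0.672 and thus just short of 1.5-fold. That adjusted p was 0.106 when only the DMSO and P+B libraries entered the fit and 0.0533 to 0.0678 when 1 of those 4 libraries was left out. BI-9564 alone differed from DMSO by -0.48 (SE 0.08, adjusted p = 0.0703, and 0.0251 with the replicate block), and PFI-3 alone by -0.21 (SE 0.08, adjusted p = 0.669).

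Adding BI-9564 to PFI-3 gave a Dnmt3l log2 difference of -0.37 between P+B and PFI-3 (SE 0.08, adjusted p = 0.0739, and 0.0267 with the replicate block). Adding PFI-3 to BI-9564 gave a log2 difference of -0.09 (SE 0.08, 95% interval -0.27 to 0.09, adjusted p = 0.866). Over the 4 libraries with BI-9564 against the 4 without, Dnmt3l fell, with a log2 difference of -0.42 (SE 0.06, 95% interval -0.55 to -0.29, adjusted p = 0.00701), and its adjusted p stayed between 0.0330 and 0.0430 with any 1 library left out. This was the one result on a member that passed the adjusted p under all of these omissions. Dnmt3l made up 58.6% to 62.6% of the Dnmt3 sum (Dnmt3a, Dnmt3b and Dnmt3l in TPM) in the libraries without BI-9564 and 53.2% to 55.5% in those with it. The ratio of Dnmt3l to Dnmt3b was 1.71 to 1.95 without BI-9564 and 1.43 to 1.49 with it.

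Aire, which overlaps Dnmt3l on the opposite strand, stood at 2 to 4 TPM in every library, and the labels do not say that counting used strand. The antisense rows of Dnmt3a and Dnmt3b, Dnmt3aos and Dnmt3bos, stood at 0 in all 8 libraries. Prdm14, known as a repressor of Dnmt3b and Dnmt3l, stood at 1 and 0 TPM in DMSO, 1 and 0 in PFI-3, and 0 in the other 4 libraries, too low to test. Of 11 tested regulators of the family known from embryonic stem cells, 0 passed the adjusted p in P+B, while 4 were lower and 7 higher. The share of all tested genes past the adjusted p alone with the replicate block was not counted. With that block 2 of the 11 regulators passed, both higher: Esrrb (log2 difference 0.74, adjusted p = 0.00486) and Klf4 (0.52, adjusted p = 0.0331, under 1.5-fold). These 2 genes, and those named below for passing with the block, were picked after their values were seen. Tdgf1, an embryonic stem cell marker and coreceptor of NODAL, fell from 163 and 156 TPM in DMSO to 82 and 84 in P+B (log2 difference -0.93, SE 0.14, adjusted p = 0.00916), and was the 1 marker of 10 called in P+B, where 6 estimates were lower and 4 higher. With the replicate block 2 markers were also called higher in P+B, Esrrb and Klf2, the latter at 65 and 52 TPM in DMSO and 152 and 94 in P+B (log2 difference 1.03, SE 0.25, adjusted p = 0.0568, and 0.00284 with the block).

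The 10 markers were also compared for each compound. In the libraries with BI-9564, 9 of the 10 had lower estimates, with a median log2 difference of -0.24 against 0.03 over all tested genes. In the main fit 1 was called, against 3.19% of all tested genes. With the block 1 was called by the full rule, against 4.95% of all tested genes. By adjusted p alone 7 markers passed with the block, all lower. The share of all tested genes by that rule was not counted. In the libraries with PFI-3, 9 of the 10 had higher estimates, with a median of 0.19 against 0.02 over all tested genes. There 0 were called, against 0.323% of all tested genes. With the block 2 markers were called higher there, Esrrb (0.81, adjusted p = 0.00392) and Klf2 (0.75, adjusted p = 0.00908), against 1.05% of all tested genes. The part of these markers in the lower Dnmt3l and Tet1 with BI-9564, or in the higher Tet1 and Tet2 estimates with PFI-3, was not tested.

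The sequence upstream of the start varied within the family in the density of CpG, the dinucleotide that these enzymes act on. RefSeq (GRCm38.p6) gave 13 start sites for the 7 members, and the 250 bases before each held between 2 and 51 CpG, against a median of 6 over 32851 such windows of all genes. The 3 windows of Dnmt3l held 5, 4 and 3, those of Dnmt1 2, 7 and 26, and those of Dnmt3a 38, 40 and 15. The single window of Dnmt3b held 21, that of Tet1 15, that of Tet2 51 and that of Tet3 17. To show the contrast, windows that hold no annotated exon of their gene are given for Dnmt3b and for the second start of Dnmt3l, and one for Tet3, the member called in P+B. They lie at chr2:153649199-153649448 (plus strand), chr10:78049592-78049841 (plus strand) and chr6:83441679-83441928 (minus strand), and capitals mark each CpG.
Dnmt3b: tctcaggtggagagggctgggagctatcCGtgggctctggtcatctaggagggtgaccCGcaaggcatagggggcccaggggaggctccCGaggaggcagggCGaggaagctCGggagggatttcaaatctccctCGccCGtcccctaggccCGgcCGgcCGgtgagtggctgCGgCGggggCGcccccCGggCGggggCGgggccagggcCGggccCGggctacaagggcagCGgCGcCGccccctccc
Dnmt3l: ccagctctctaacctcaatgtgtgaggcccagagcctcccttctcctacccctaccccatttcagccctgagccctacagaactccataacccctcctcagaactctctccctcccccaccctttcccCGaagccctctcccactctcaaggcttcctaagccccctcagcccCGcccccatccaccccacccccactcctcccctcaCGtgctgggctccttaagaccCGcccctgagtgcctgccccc
Tet3: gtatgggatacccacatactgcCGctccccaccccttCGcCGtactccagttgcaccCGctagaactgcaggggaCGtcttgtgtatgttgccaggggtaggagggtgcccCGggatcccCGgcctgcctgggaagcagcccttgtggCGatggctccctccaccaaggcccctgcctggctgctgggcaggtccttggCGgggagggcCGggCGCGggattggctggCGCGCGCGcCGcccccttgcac
In 0 of the 13 windows was there a match to TGANTCA or to TGACGTCA. TGANTCA (N is any base) includes the motif bound by JUN in AP-1 dimers and is wider, and TGACGTCA is the motif of JUN with ATF partners. Both motifs read the same on either strand, and neither contains the other. Of all 32851 windows, 6.75% hold the first and 1.55% the second, so the absence from 13 windows says only that these letters are not there.

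Tet1 (chr10:62804570-62908996, minus strand), the most abundant of the 3 dioxygenases here, had estimates of opposite sign under the 2 compounds. It stood at 32 and 30 TPM in DMSO, 38 and 37 in PFI-3, 21 and 19 in BI-9564, and 28 and 25 in P+B. Both PFI-3 libraries lay above and all libraries with BI-9564 below the DMSO libraries. Relative to DMSO the log2 difference was 0.27 in PFI-3 (SE 0.13, adjusted p = 0.783), -0.61 in BI-9564 (SE 0.13, 95% interval -0.92 to -0.30, adjusted p = 0.131) and -0.22 in P+B (SE 0.13, adjusted p = 0.376; -0.30 to -0.14 with any 1 library left out). The replicate block brought the adjusted p under BI-9564 to 0.0448.

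Set directly against PFI-3, BI-9564 gave a Tet1 log2 difference of -0.88 (SE 0.13, adjusted p = 0.0667, and 0.0196 with the replicate block). In that comparison 0 members were called, against 11 genes (0.108%; 0 or 1 with any 1 library left out), and 2, Tet1 and Tet2, with the replicate block, against 151 genes (1.48%). Over the 4 libraries with BI-9564 against the 4 without, Tet1 fell, with a log2 difference of -0.55 (SE 0.09, 95% interval -0.77 to -0.33, adjusted p = 0.0176). The adjusted p rose to between 0.0546 and 0.0691 when any 1 library other than P+B replicate 1 was left out, and was 0.0477 without P+B replicate 1. Adding PFI-3 to BI-9564 gave 0.39 (SE 0.13, adjusted p = 0.502), and adding BI-9564 to PFI-3 gave -0.49 (SE 0.13, adjusted p = 0.119).

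Tet2 (chr3:133463679-133545139, minus strand) stood at 18 and 11 TPM in DMSO, 29 and 18 in PFI-3, 11 and 10 in BI-9564, and 15 and 11 in P+B. The first replicate was the higher one under each of the 4 treatments, and PFI-3 and DMSO met at 18. The log2 difference from DMSO was 0.66 in PFI-3 (SE 0.30, adjusted p = 0.752), -0.39 in BI-9564 (SE 0.30, adjusted p = 0.581) and -0.12 in P+B (SE 0.30, adjusted p = 0.844). These values hung on single libraries: with any 1 left out they ran from 0.33 to 0.99 in PFI-3, from -0.73 to -0.063 in BI-9564 and from -0.46 to 0.21 in P+B. BI-9564 against PFI-3 differed by -1.06 (SE 0.30, adjusted p = 0.206), and the adjusted p was 0.0423 with the replicate block. For the libraries with BI-9564 against those without, the log2 difference was -0.59 (SE 0.21), with an adjusted p of 0.133 that became 0.0288 with the block. P+B against PFI-3 differed by -0.78 (SE 0.30, adjusted p = 0.247; -1.11 to -0.46 with any 1 library left out).

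Tet3 (chr6:83362373-83459084, minus strand) was the one member called in P+B. It stood at 18 and 26 TPM in DMSO, 12 and 14 in PFI-3, 16 and 20 in BI-9564, and 9 and 11 in P+B. Both libraries of PFI-3 and of P+B lay below both DMSO libraries, whereas BI-9564 overlapped with DMSO. The log2 difference in P+B from DMSO was -1.05 (SE 0.23, 95% interval -1.57 to -0.52, adjusted p = 0.0426), a ratio of 0.484. The call rested on a narrow margin: the adjusted p was 0.174 when only the DMSO and P+B libraries were fitted and between 0.0712 and 0.182 when any 1 library was left out, with log2 differences of -1.30 to -0.79. It was 0.00818 with the replicate block.

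PFI-3 alone gave a Tet3 log2 difference from DMSO of -0.70 (SE 0.23, adjusted p = 0.600) and BI-9564 alone one of -0.26 (SE 0.23, adjusted p = 0.641). With any 1 library left out these ran from -0.95 to -0.44 and from -0.51 to -0.0080. Over the 4 libraries with PFI-3 against the 4 without, Tet3 differed by -0.74 (SE 0.16, 95% interval -1.11 to -0.37, adjusted p = 0.135, and 0.0235 with the replicate block). Tet3 and Tet1 thus had estimates of opposite sign for PFI-3, with Tet1 at 0.33 (SE 0.09, adjusted p = 0.251). The ratio of Tet1 to Tet3 was 1.78 and 1.15 in DMSO and 1.31 and 0.95 in BI-9564, against 3.17 and 2.64 in PFI-3 and 3.11 and 2.27 in P+B. The 4 libraries with PFI-3 all lay above the 4 without in this ratio of 2 members with opposite estimates. Tet1 by itself overlapped between these sets of libraries. The share of other gene pairs that separate so was not counted. Adding PFI-3 to BI-9564 gave a Tet3 log2 difference of -0.79 (SE 0.23, adjusted p = 0.391), and adding BI-9564 to PFI-3 gave -0.35 (SE 0.23, adjusted p = 0.491; -0.48 to -0.22 with any 1 library left out).

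**Figure D3:**
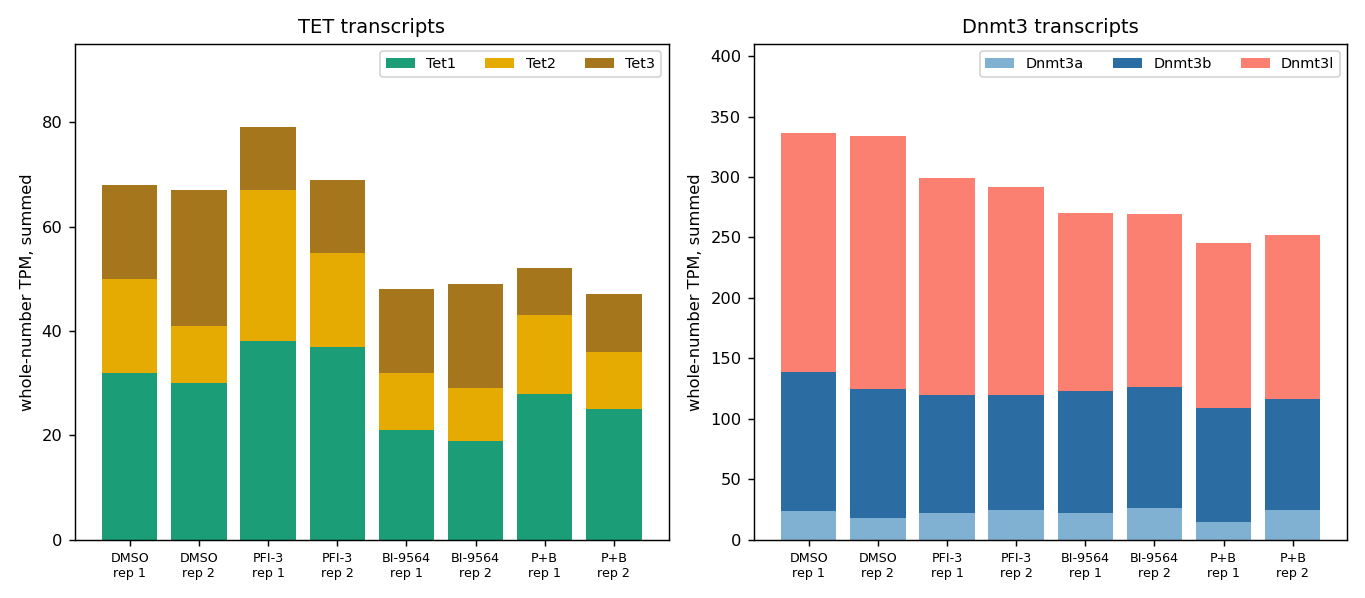
Summed whole-number TPM (vertical axes, starting at 0) of the 3 TET genes (left) and of Dnmt3a, Dnmt3b and Dnmt3l (right), stacked by gene, for each of the 8 libraries. The TET sum is 67 to 79 without BI-9564 and 47 to 52 with it, and the Dnmt3 sum is 336 and 334 in DMSO and 245 and 252 in P+B.

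As a family the 3 TET transcripts summed to 68 and 67 TPM in DMSO, 79 and 69 in PFI-3, 48 and 49 in BI-9564, and 52 and 47 in P+B. The 4 libraries with BI-9564 lay below the 4 without. The share of Tet3 in this sum was 26.5% and 38.8% in DMSO and 33.3% and 40.8% in BI-9564. It was 15.2% and 20.3% in PFI-3 and 17.3% and 23.4% in P+B. The 4 DNMT transcripts summed to between 453 and 500 TPM without BI-9564 and between 394 and 443 with it. These sums and shares, and the ratios given above, are descriptions and were not tested.

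Genes that work beside the TET enzymes were examined too. Tdg, which encodes a glycosylase that removes some oxidised forms of 5-methylcytosine, stood between 67 and 79 TPM in all libraries. It differed by -0.02 in P+B (SE 0.12, adjusted p = 0.931), with its sign turned by quantile normalization (0.0011). Of 18 tested TET partners and base excision genes, 2 passed the adjusted p in P+B, both lower, against 4.89% of all tested genes. Of the 18 estimates, 9 were lower and 9 higher. Apex1, the endonuclease that cuts abasic sites, fell from 267 and 268 TPM in DMSO to 174 and 203 in P+B (log2 difference -0.51, SE 0.09, adjusted p = 0.0212). Gadd45a, a stress gene whose product has been linked to DNA demethylation, fell from 87 and 112 TPM to 46 and 47 (log2 difference -1.07, SE 0.16, adjusted p = 0.00980) and was the 1 called gene of the list. The P+B and DMSO values did not overlap for either gene, as for 47.5% of all tested genes (18.9% lower). The replicate block called 718 of 10222 genes (7.02%) in this comparison. With the replicate block 3 more genes of the list were called, all higher: Polb, the polymerase of base excision repair (log2 difference 0.63, adjusted p = 0.0528, and 0.0190 with the block), Cxxc5, a CpG-binding partner of TET proteins (0.63, 0.0689 and 0.0192), and Gadd45g (0.82, 0.105 and 0.0498).

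Among readers of CpG, 1 of 10 tested genes passed the adjusted p in P+B and was called. Zbtb38, a zinc finger protein that binds methylated DNA, fell from 51 and 51 TPM in DMSO to 25 and 28 in P+B (log2 difference -0.92, SE 0.15, adjusted p = 0.0154). It stood at 40 and 45 in PFI-3 and at 28 and 36 in BI-9564, so that every treated library lay below DMSO. Of these genes, Apex1 had adjusted p values up to 0.113, Gadd45a up to 0.0889, Zbtb38 up to 0.100 and Tdgf1 up to 0.0861 when 1 library was left out. In 12 genes of S-adenosylmethionine supply, the methyl donor of these enzymes, 0 passed the adjusted p, with 4 lower and 8 higher. Of 8 tested germline genes whose promoters are methylated in somatic cells, 0 passed in P+B, with 3 lower and 5 higher.

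Departure of P+B from the sum of the single compounds was tested as an interaction. It measures combined action only if P+B held each compound at its single dose, which the labels do not give. For its colony assay the paper gives each compound at a lower dose in P+B than alone. For its PCR assay of expression at 6 h it states no separate dose for the combination. In limma 0 of 10222 genes (0%) and 0 members passed, with 333 genes and 0 members at an unadjusted p under 0.05. The interaction estimates of the members ran from -0.46 for Dnmt3a (95% interval -1.26 to 0.35) to 0.12 for Tet1 (-0.31 to 0.56), and that of Tet3 was -0.09 (-0.83 to 0.66). These intervals are wide enough to hold a departure of 1.5-fold for Dnmt3a, Tet2 and Tet3. The remaining pairs gave 0 called members in P+B against PFI-3, where 134 genes were called (1.31%; 351 with the replicate block, 0 to 51 with any 1 library left out). They gave 0 in P+B against BI-9564, where 20 genes were called (0.196%; 82 with the block, 0 to 7 with any 1 library left out).

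The libraries numbered 2 differed from those numbered 1 in ways the treatments do not give. Between the replicate series 135 genes were called (1.32%; 32 to 52 with any 1 library left out) and 0 members. Tet2 was lower in the second series under each of the 4 treatments, with a log2 difference of -0.47 (SE 0.14, adjusted p = 0.114), and Tet3 was higher under each of the 4, by 0.32 (SE 0.12, adjusted p = 0.182). Dnmt3l, with a difference of -0.003 (SE 0.05, adjusted p = 0.982), had the estimate nearest 0. In the same comparison all 10 embryonic stem cell markers had lower estimates in the second series, 5 of them with an adjusted p under 0.05, and all 15 S phase genes had higher estimates, 2 of them past it. Over all tested genes 385 (3.77%) passed the adjusted p alone, 161 higher and 224 lower. The median log2 difference of all tested genes was -0.006. Of 4 tested markers of two-cell-like cells, a rare state in embryonic stem cell cultures, 3 were called higher in the second series: Zscan4c (log2 difference 2.37, adjusted p = 0.00144), Zscan4f (2.31, adjusted p = 0.00144) and Zscan4d (2.65, adjusted p = 0.00934). The 9 markers of that state with a row summed to between 81 and 117 TPM per library in the first series and between 147 and 176 in the second, with Zfp352 at 0 in every library. The part of these 3 lists in the differences of Tet2 and Tet3 was not tested. Dppa3 stood between 22 and 30 TPM in the first series and between 5 and 7 in the second.

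**Figure D4:**
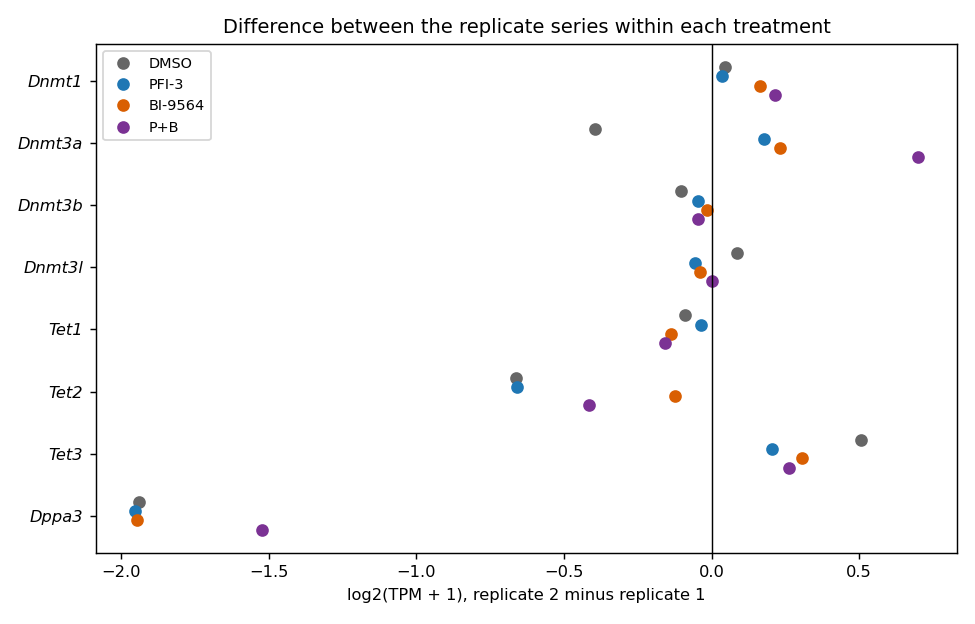
Replicate 2 minus replicate 1 in log2(TPM + 1) (horizontal axis) for the 7 members and Dppa3, 1 point per treatment. Tet2 lies below 0 and Tet3 above 0 in all 4 treatments, Dnmt3l lies near 0, and Dppa3 is far below 0.

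The patterns of other genes over the 8 libraries were compared with each member by Pearson's r of log2(TPM + 1), among 6521 genes with a mean of at least 20. For Dnmt3l the nearest were Prr13 (r = 0.990) and Rrp9 (r = 0.983). Prr13 stood at 87 and 85 TPM in DMSO, 67 and 64 in PFI-3, 43 and 41 in BI-9564, and 34 and 37 in P+B, the same order of treatments as Dnmt3l with wider steps. For Tet3 the nearest were Bach1 (r = 0.988) and Lrp2 (r = 0.969), for Tet1 Pdia4 (r = 0.978) and U2surp (r = 0.976), and for Tet2 Fxr2 (r = 0.976) and Polr2g (r = 0.963). Dnmt3b was nearest to Tspan9 (r = 0.981) and Mef2d (r = 0.971), Dnmt1 to Atp5l (r = 0.944) and Foxred1 (r = 0.943), and Dnmt3a to Wdr4 (r = 0.947) and Msl1 (r = 0.946). These values are the highest of a search over many genes in 8 libraries that share treatments and replicate series, and they carry no test.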

How the data were processed

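RNA was extracted with TRIzol, enriched with oligo-dT beads and made into libraries with a VAHTS mRNA-seq kit, per the labels. The submitters' processing notes name bcl2fastq, Bowtie2 2.2.5, RSEM 1.3.0 and the build mm10, without roles. The deposited values were whole-number TPM, treated here as a score because the authors' file holds no decimals; whether decimals were rounded or dropped is not given in the sources used here. At 10 TPM either could move a value by several percent. Because the table holds no counts, a count model as used in the study was not run, and depth is unknown.

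All 8 columns were matched to groups by the labels. Values were tested as log2(TPM + 1) with limma 3.58.1 (R 4.3.3; lmFit, eBayes with trend) for genes with a mean of at least 5, in a model of the 4 group means, with Benjamini-Hochberg adjustment over 10222 genes; all p-values are two-sided. The 10 comparisons were the 6 pairs of groups, each compound present against absent, the interaction, and the replicate series. The fit was tested on simulated data in which libraries varied independently of each other. That check does not cover the shared deviation of same-numbered libraries described below. Members and gene lists were chosen with earlier results of these data known. Named beside the members were a fixed set of relatives and partners, up to 3 genes a list with the largest change among those of adjusted p under 0.05 in P+B against DMSO, and the 2 genes of most similar pattern; genes that passed only with the replicate block, and the Zscan4 genes, were named after their values were seen.

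Same-numbered libraries deviated together: the correlation of their replicate differences was 0.143 to 0.236 over all 6 pairs of groups, so the number was used as a block in an alternative fit. Other alternatives were pseudocounts of 0.5 and 5, mean filters of 1 and 20 or none, quantile normalization, median centring, no trend, a fit on the compared groups alone, an adjusted p of 0.01 or no minimum fold, and each library left out. Gene positions came from GENCODE M21 (GRCm38, the build called mm10) and promoter windows from RefSeq (GRCm38.p6).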

Additional observations from a re-analysis of the deposited data

How the results depend on the processing

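In P+B against DMSO the count of called members, 1, was 0 with a mean filter of 1 or 20 (the latter leaves Tet3 out), without a filter, without the trend, with only the libraries compared, at an adjusted p of 0.01, and 0 to 0 with 1 library left out; it was 2 with median centring and without a fold threshold. With the replicate block the count was 1 in BI-9564 against DMSO, 2 in BI-9564 against PFI-3, 1 for BI-9564 present and 1 for PFI-3 present, in place of 0 each, and the block changed no other count of members. For BI-9564 present the count was also 1 with quantile normalization, 1 with median centring and 2 without a fold threshold, and ran from 0 to 1 with 1 library left out (1 without P+B replicate 1). The cause of these changes was not tested.

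Estimates near 0 changed sign. In P+B against DMSO, quantile normalization gave 0.070 for Dnmt1, -0.063 for Trdmt1 and 0.0011 for Tdg, and median centring -0.053 for Trdmt1. Median centring gave Dnmt1 -0.041 in BI-9564 against DMSO, -0.032 in P+B against PFI-3 and -0.036 for BI-9564 present. With 1 library left out, the P+B against DMSO difference ran from -0.13 to 0.081 for Dnmt1, -0.45 to 0.25 for Dnmt3a, -0.46 to 0.21 for Tet2, -0.46 to 0.54 for Trdmt1, -0.76 to 1.18 for Dppa3 and -0.14 to 0.094 for Tdg. Dnmt1 ran from -0.076 to 0.089 in BI-9564 against DMSO, -0.093 to 0.12 in P+B against PFI-3, -0.14 to 0.075 in P+B against BI-9564, -0.036 to 0.13 in BI-9564 against PFI-3, -0.043 to 0.064 for BI-9564 present, -0.090 to 0.017 for PFI-3 present and -0.10 to 0.11 in the interaction. Dnmt3a ran from -0.032 to 0.36 in PFI-3 against DMSO, -0.0046 to 0.39 in BI-9564 against DMSO, -0.61 to 0.088 in P+B against PFI-3, -0.64 to 0.061 in P+B against BI-9564, -0.088 to 0.14 in BI-9564 against PFI-3, -0.21 to 0.14 for BI-9564 present and -0.24 to 0.11 for PFI-3 present. Tet3 ran from -0.34 to 0.16 in the interaction, and Dnmt3l from -0.032 to 0.015 between the replicate series. With 1 library left out, a lone library is assumed to vary like the other groups.

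These limits hold for all values: 2 libraries a group give few degrees of freedom, and whole-number TPM without depth give no counting error, which weighs most on Tet2, Tet3 and Dnmt3a.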
